A study of Mus musculus with 16 samples.

Results

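The genes described here were 34 genes of endoplasmic reticulum (ER) chaperones and the unfolded protein response, out of 43346 genes in the deposited table. They were chosen by symbol from a list of known ER folding and stress genes. The rule uses no measured value, but results of these data were known when the list was made. Each symbol occurred once in the table, and all 34 genes passed the filter on low counts, with the lowest count, 84 reads, for Chac1 in its weakest library.

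The genes were measured by RNA-seq in endothelial cells (ECs) sorted from the lungs of FVB mice that carried a Col1a1-GFP reporter, which marks collagen-producing cells so that they could be gated out. The sort kept live CD31-positive cells that lacked CD45, EpCAM and GFP, so the libraries cover the lung endothelium as a mixture of its capillary, venous, arterial and lymphatic cells. Mice were 2 months (young) or 18 months (aged) old, and received bleomycin, a DNA-damaging drug that causes lung fibrosis, or saline (sham) into the trachea; cells were collected 30 days later. The 4 groups held 5 (Young Sham), 4 (Young Bleo), 3 (Aged Sham) and 4 libraries (Aged Bleo), and every mouse shared the strain and the reporter. Libraries are named by their group and replicate number.

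The ER folds secreted and membrane proteins with the help of HSP70 and HSP90 chaperones, of lectin chaperones that hold glycoproteins, and of disulphide isomerases that form their cross-links. When unfolded proteins build up, the sensors IRE1 (Ern1), PERK (Eif2ak3) and ATF6 start the unfolded protein response, in which the factors XBP1, ATF4 and cleaved ATF6 raise chaperone, degradation and amino acid genes. Endothelial cells use this machinery for basement membrane collagens and laminins and for their many secreted and surface proteins.

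Motifs through which the response is known to act were searched in the RefSeq promoter table (build GRCm38.p6), which gives 250 bases before to 50 bases after each gene start. Of the 34 members, 30 had an entry, and Sec61a1, Atf6, Manf and Hyou1 had none. Both strands were searched for the ER stress element (ERSE), written as CCAAT, then 9 bases of any kind, then CCACG, to which ATF6 and XBP1 are known to bind. It was present in 8 of the 30 member promoters (26.7%) and in 39 of all 32851 promoters (0.119%). The matched bases are shown because they are the shared feature of these promoters, with the fixed letters of the motif in capitals and each read 5′ to 3′ on the strand of the match. Hsp90b1 held it at 2 positions.
Calr: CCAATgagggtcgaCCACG
Canx: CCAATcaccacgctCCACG
Creld2: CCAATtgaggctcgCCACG
Dnajc3: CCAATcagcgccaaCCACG
Hsp90b1: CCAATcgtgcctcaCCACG
Hsp90b1: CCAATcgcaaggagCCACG
Hspa5: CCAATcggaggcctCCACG
Pdia6: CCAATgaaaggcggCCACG
Syvn1: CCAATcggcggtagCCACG

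A shorter form, ERSE-II (ATTGG, 1 base of any kind, CCACG), was found in 2 of the 30 member promoters (6.67%), those of Dnajb11 and Herpud1, and in 0.0365% of all promoters.
Dnajb11: ATTGGcCCACG
Herpud1: ATTGGgCCACG

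The C/EBP-ATF response element, here TGATG, 1 base of any kind, AA, was present in 4 of the 30 member promoters (13.3%), those of Asns, Chac1, Herpud1 and Trib3, and in 3.97% of all promoters. None of these matches overlapped another. A match gives only the letters present in this window and was not a measure of binding. Motifs and members were chosen as known parts of the unfolded protein response, so the higher member shares are not a result of these data.

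The full windows of 4 members are given because the results below turn on them: Trib3, Syvn1 and Serpinh1 were the members that passed the test in any comparison, and Hspa5 encodes BiP, the main HSP70 chaperone of the ER. They lie at chr2:34771840-34772139 on the plus strand for Hspa5, chr2:152344011-152344310 on the minus strand for Trib3, chr19:6046326-6046625 on the plus strand for Syvn1 and chr7:99353190-99353489 on the minus strand for Serpinh1, and each is printed 5′ to 3′ on its gene's strand. Capitals mark the ERSE in Hspa5 and Syvn1 and the C/EBP-ATF element, on the opposite strand, in Trib3. The Serpinh1 window held none of the 3 motifs.
Hspa5: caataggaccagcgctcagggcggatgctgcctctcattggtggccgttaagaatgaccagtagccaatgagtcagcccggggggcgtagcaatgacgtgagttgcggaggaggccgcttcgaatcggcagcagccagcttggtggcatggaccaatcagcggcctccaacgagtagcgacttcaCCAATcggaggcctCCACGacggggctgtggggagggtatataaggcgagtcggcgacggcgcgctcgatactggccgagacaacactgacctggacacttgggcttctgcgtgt
Trib3: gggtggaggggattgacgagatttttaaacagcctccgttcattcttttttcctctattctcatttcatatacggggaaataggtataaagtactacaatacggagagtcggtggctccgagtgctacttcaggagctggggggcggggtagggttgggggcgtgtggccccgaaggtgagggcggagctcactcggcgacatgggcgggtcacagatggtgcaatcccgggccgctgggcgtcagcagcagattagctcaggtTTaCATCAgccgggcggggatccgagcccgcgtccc
Syvn1: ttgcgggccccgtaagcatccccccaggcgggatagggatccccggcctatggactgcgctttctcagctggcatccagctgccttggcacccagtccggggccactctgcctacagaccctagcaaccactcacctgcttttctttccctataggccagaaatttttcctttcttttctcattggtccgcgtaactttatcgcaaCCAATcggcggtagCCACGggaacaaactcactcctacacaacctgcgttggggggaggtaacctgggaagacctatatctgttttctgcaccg
Serpinh1: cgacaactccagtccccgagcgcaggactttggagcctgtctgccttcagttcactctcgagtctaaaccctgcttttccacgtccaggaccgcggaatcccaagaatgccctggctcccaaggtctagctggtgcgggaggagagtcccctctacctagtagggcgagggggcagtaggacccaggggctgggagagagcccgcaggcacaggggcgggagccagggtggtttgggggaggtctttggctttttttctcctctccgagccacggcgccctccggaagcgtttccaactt

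Library totals ran from 20907113 to 71035301 assigned reads, and 15092 to 17259 genes had at least 10 reads. All libraries expressed the endothelial markers: the summed level of 8 markers (Pecam1, Cdh5, Kdr, Tie1, Tek, Erg, Cldn5 and Emcn) was 11467 to 12390 CPM (read counts per library scaled to a common size with TMM factors) in Young Sham, 6681 to 9971 in Young Bleo, 9782 to 10818 in Aged Sham and 6590 to 9786 in Aged Bleo. Markers of leukocytes and macrophages (10 genes) summed to 76.8 to 126 CPM in Young Sham, 421 to 1394 in Young Bleo, 176 to 534 in Aged Sham and 625 to 4146 in Aged Bleo. Ptprc, which encodes the depleted surface protein CD45, stayed between 0 and 21.5 CPM. Epithelial markers (7 genes) summed to 153 to 853 CPM in Young Sham and 291 to 825 in Young Bleo. In Aged Sham they summed to 278 to 1029 CPM, and in Aged Bleo to 271 to 717. The part of epithelial RNA in the members' values was not tested. Libraries also differed in the balance of short and long genes: expressed genes under 1000 bases deviated from the mean of all libraries by a median log2 value of 0.67 in Aged Sham 13, 0.36 in Young Bleo 19 and 0.33 in Aged Bleo 2, and of -0.41 in both Young Sham 22 and Young Bleo 20. The study's methods give lower RNA integrity ranges for the sham groups than for the bleomycin groups; the part of integrity in the results was not tested. In bulk samples, fewer cells of a type and less RNA per cell cannot be told apart.

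Per length, the members spanned a wide range. Levels are given as deposited FPKM (fragments per kilobase of gene length, scaled to library size), averaged over the 4 group means. Pdia3, a disulphide isomerase that works with the lectin chaperones, was highest at 117 FPKM. It was followed by the lectin chaperone Calr at 90.1 FPKM and the isomerase P4hb at 86.3 FPKM, and then by Xbp1 at 72.2 FPKM, Atf4 at 63.1 FPKM and Hspa5 at 61.6 FPKM. The sensors were near the bottom of the order: Atf6 was at 1.66 FPKM and Ern1 at 0.776 FPKM, and only Hyou1, the nucleotide exchange partner of BiP, was lower, at 0.685 FPKM. Neighbours in this order mostly overlapped. Hspa5 ran from 34.4 to 111 FPKM and Atf4 from 48.9 to 77.5 FPKM over the 16 libraries, so that these 2 could not be ranked, whereas no library of Pdia3 came near the level of any sensor.

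**Figure D1:**
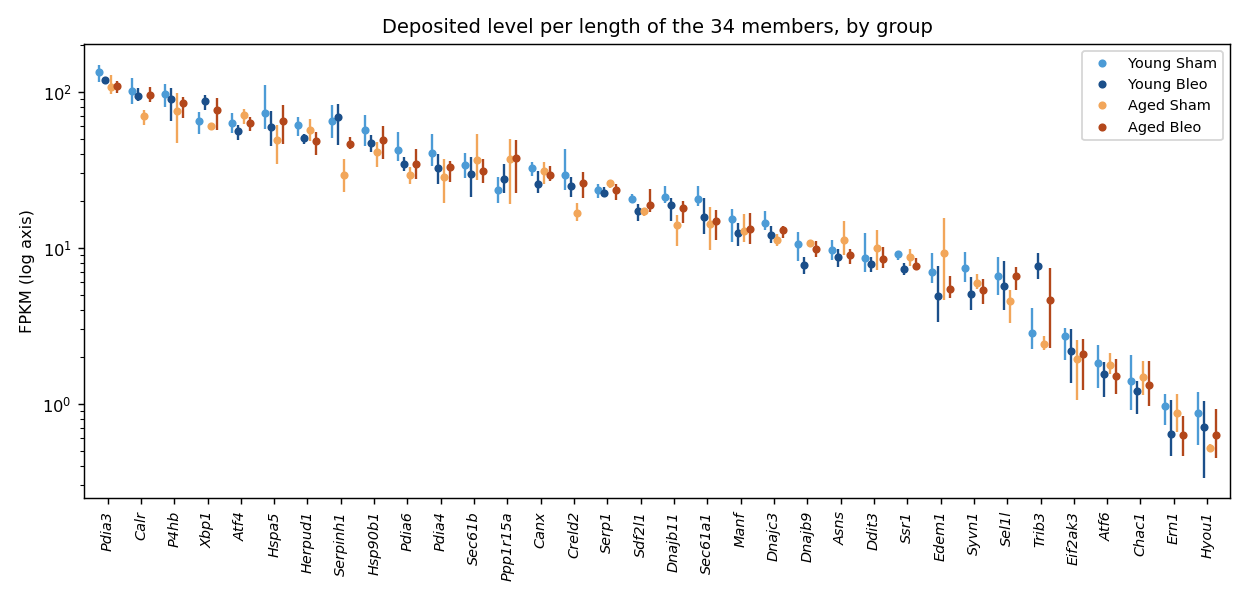
Deposited FPKM (log axis) of the 34 members in order of their mean level; points are group means and vertical lines run from the lowest to the highest library of each group (n = 5, 4, 3 and 4). Pdia3, at 117 FPKM, is the highest member, and Hyou1, at 0.685 FPKM, the lowest; the Young Bleo line of Trib3 and the Aged Sham line of Serpinh1 stand clear of the Young Sham lines.

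The first comparison asked how the young endothelium had responded 30 days after bleomycin. No chaperone or isomerase gene among the 34 members was called higher in Young Bleo relative to Young Sham. Of the 34 members 1 rose, Trib3, and 1 fell, Syvn1. Calls used the edgeR quasi-likelihood test, at an adjusted p up to 0.05 and a log2 fold change past 0.5 in either direction. Over all 18324 genes tested, 9.78% were called in this comparison, 5.69% as higher and 4.09% as lower, so the members' share was not above the background. The fold changes of 30 of the 34 members were below 0, against 48.7% of all genes, and their median was -0.26 against 0.01 for all genes. This count was 30 or 31 in each of the 16 fits that left out 1 library. The 95% intervals of 31 members had an upper bound under 1.5-fold, and those of 31 lay within 2-fold in either direction.

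**Figure D2:**
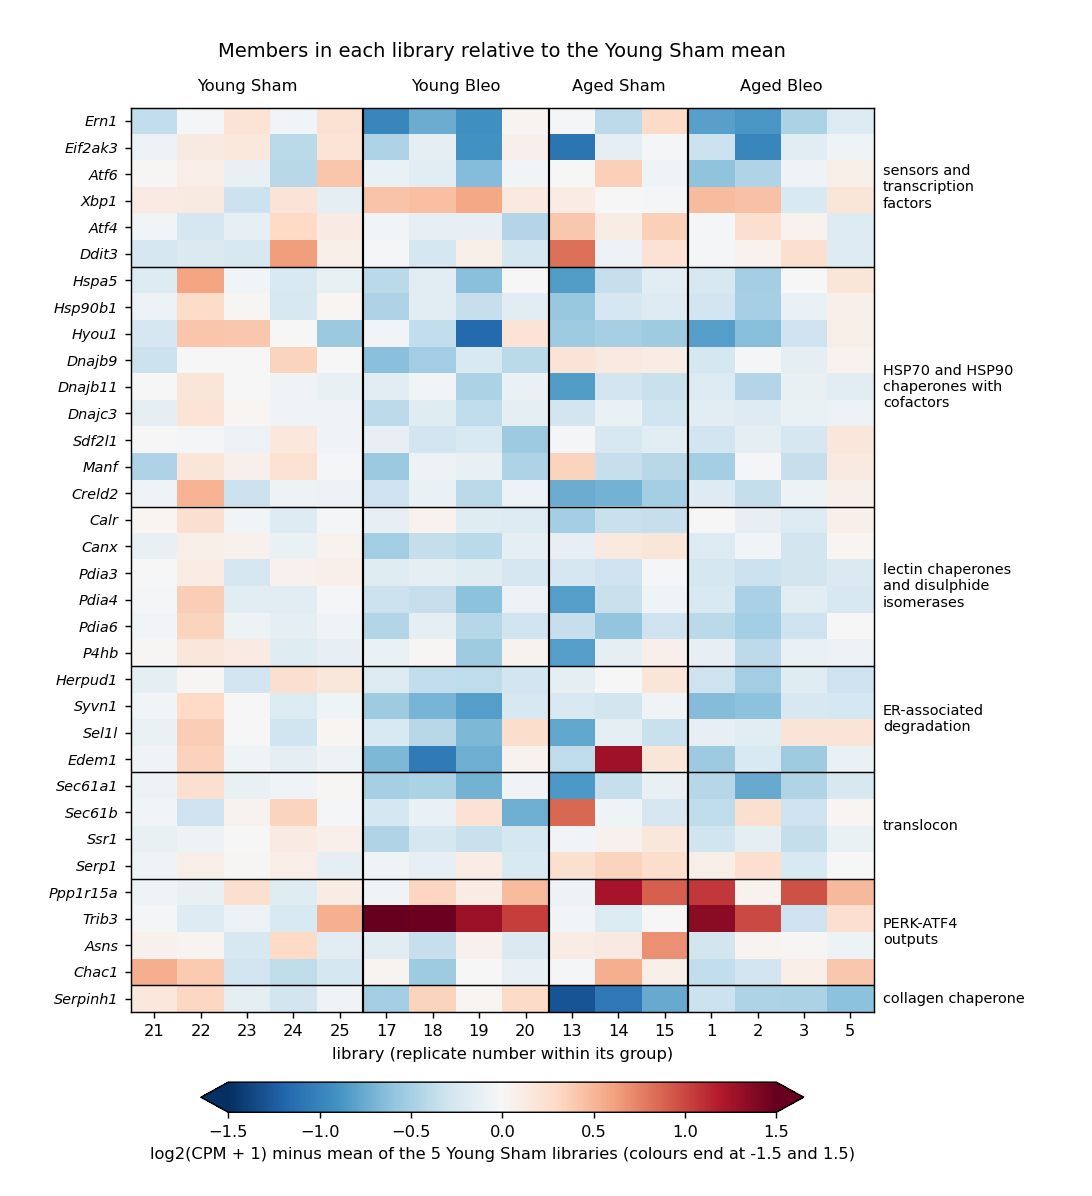
Each cell is 1 member in 1 library, coloured by log2(CPM + 1) minus the mean of the 5 Young Sham libraries; red is above and blue below that mean, and rows are grouped by role. Trib3 is red in all 4 Young Bleo libraries, Serpinh1 is blue in all 3 Aged Sham libraries, and most chaperone rows are pale, with Young Sham 22 red in many of them.

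Trib3 encodes a pseudokinase that is switched on through ATF4 and CHOP and dampens their activity. In Young Sham it stood at 13.4, 11.9, 12.9, 11.6 and 20.3 CPM. In Young Bleo it stood at 44.9, 39.9, 34.9 and 29.2 CPM. Every injured young library was above every uninjured one, a separation that 7.85% of all genes showed in this direction. The rise was 2.65-fold (95% interval 1.76 to 3.99; log2 fold change 1.41 ± 0.28, SE; adjusted p = 0.00673, edgeR), and it was called in all 16 fits that left out 1 library, with adjusted p of at most 0.0275. In Aged Sham the level was 13.3, 11.8 and 13.8 CPM, within the range of Young Sham. In Aged Bleo it was 36.6, 28.3, 10.9 and 16.6 CPM. Aged Bleo 1 and 2 lay at or near the Young Bleo levels, Aged Bleo 5 lay within the Young Sham range, and Aged Bleo 3 was the lowest of all 16 libraries. The log2 fold change from Aged Sham to Aged Bleo was 0.83 ± 0.32 and was not called (adjusted p = 0.213, edgeR). Without Aged Bleo 3 it was 1.06 and was called (adjusted p = 0.0482). Aged Bleo 1, the highest library of its group, pulled the fold change up. The difference between the aged and the young response was -0.58 (95% interval -1.47 to 0.32; adjusted p = 0.788), so a different response with age was not shown for Trib3.

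The sensors were not called in any comparison. Ern1, the kinase and RNase that splices Xbp1 mRNA, was at 13.8, 17.7, 21.0, 17.6 and 21.4 CPM in Young Sham and at 8.65, 10.4, 9.13 and 18.7 CPM in Young Bleo. In Aged Sham it was at 17.7, 13.6 and 22.3 CPM, and in Aged Bleo at 9.84, 9.39, 12.7 and 15.5 CPM. In both ages the injured libraries were mostly the lower ones, with 1 Young Bleo library and 1 Aged Bleo library among the sham values. The log2 fold change was -0.64 ± 0.25 in young mice (adjusted p = 0.111, edgeR) and -0.59 ± 0.28 in aged mice (adjusted p = 0.301). Without Young Bleo 20, the one high library, the young value was -0.96 and was called (adjusted p = 0.00982).

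Eif2ak3, which encodes the PERK kinase that slows translation, was at 31.4, 36.8, 37.3, 25.2 and 38.6 CPM in Young Sham and at 23.9, 30.5, 17.4 and 35.5 CPM in Young Bleo. In Aged Sham it was at 15.1, 30.2 and 33.0 CPM, and in Aged Bleo at 26.5, 16.5, 29.8 and 32.0 CPM. All 4 groups overlapped, and the lowest values came from Aged Sham 13, Aged Bleo 2 and Young Bleo 19, the libraries in which short genes were most raised. Atf6, whose cleaved form is a transcription factor, was at 38.5, 40.8, 35.2, 28.2 and 51.3 CPM in Young Sham and at 35.5, 33.8, 23.8 and 37.0 CPM in Young Bleo. In Aged Sham it was at 38.1, 49.1 and 36.4 CPM, and in Aged Bleo at 24.7, 27.6, 36.7 and 40.4 CPM. The groups overlapped here too. The young log2 fold changes were -0.34 ± 0.25 for Eif2ak3 (adjusted p = 0.462, edgeR) and -0.25 ± 0.19 for Atf6 (adjusted p = 0.467).

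Of the transcription factors, Xbp1 had the only fold change above 0 in this comparison, at 647 ± 79.3 CPM (SD, n = 4) in Young Bleo and 491 ± 71.0 CPM (n = 5) in Young Sham. Its log2 fold change of 0.40 ± 0.15 was not called (adjusted p = 0.108, edgeR). These counts add spliced and unspliced Xbp1 mRNA together, and splicing was not analysed here. Atf4, whose activity depends mainly on translation of its mRNA, was at 221 ± 25.4 CPM in Young Bleo and 252 ± 38.2 CPM in Young Sham (log2 fold change -0.19 ± 0.14). Ddit3, which encodes the pro-apoptotic factor CHOP, was at 30.5 ± 3.87 and 34.02 ± 10.3 CPM (-0.16 ± 0.21). Neither passed the test.

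All 9 genes of the HSP70 and HSP90 group had a young fold change below 0, with a median of -0.29, and none was called by edgeR, DESeq2 or limma voom. At an unadjusted p under 0.05 there were 3. Hspa5 was at 598, 1043, 672, 589 and 640.4 CPM in Young Sham and at 523, 620.4, 446 and 692 CPM in Young Bleo. In Aged Sham it was at 386, 546 and 618 CPM, and in Aged Bleo at 585, 487, 687 and 785 CPM. Young Sham 22 stood alone at the top, and with or without it the groups overlapped. The young log2 fold change of Hspa5 was -0.31 (95% interval -0.74 to 0.12; adjusted p = 0.379, edgeR), and without Young Sham 22 it was -0.13.

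Among the partners of BiP, Dnajb9, a J-protein that also restrains IRE1, was at 33.1 ± 4.13 CPM in Young Bleo and 45.6 ± 7.55 CPM in Young Sham. Its log2 fold change of -0.46 ± 0.13 had an adjusted p of 0.0377 (edgeR) but missed the fold threshold of 0.5. It was called without Young Bleo 19 (-0.54) and without Young Sham 21 (-0.54). Hsp90b1, the HSP90 chaperone of the ER, had a log2 fold change of -0.29 ± 0.14, and Dnajc3, a J-protein that inhibits PERK, of -0.28 ± 0.11. The others (Hyou1, Dnajb11, Sdf2l1, Manf and Creld2) ranged from -0.33 to -0.19.

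The 6 lectin chaperones and disulphide isomerases were also all below 0 in Young Bleo, with a median of -0.26 and no call by edgeR, DESeq2 or limma voom; 2 had an unadjusted p under 0.05. Canx, the membrane-bound lectin chaperone, had a log2 fold change of -0.35 ± 0.12 (adjusted p = 0.0609, edgeR) and Pdia6 of -0.34 ± 0.13 (adjusted p = 0.129). In both genes all Young Bleo libraries lay below all Young Sham libraries. The same held for Syvn1, Sdf2l1 and Ssr1, that is for 5 of the 34 members, against 6.95% of all genes. Calr, P4hb, Pdia3 and Pdia4 ranged from -0.34 to -0.12 and overlapped.

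Syvn1 encodes HRD1, the ubiquitin ligase that marks misfolded ER proteins for degradation, and its promoter held the ERSE shown above. It was at 78.2, 99.3, 80.3, 69.8 and 77.0 CPM in Young Sham and at 55.0, 49.3, 45.1 and 67.8 CPM in Young Bleo. The highest Young Bleo library lay just under the lowest Young Sham library. Syvn1 fell to 0.671 of its sham level (95% interval 0.540 to 0.833; log2 fold change -0.58 ± 0.15; adjusted p = 0.022, edgeR). The call was lost without Young Bleo 17 (adjusted p = 0.0629), Young Bleo 18 (0.0775), Young Bleo 19 (0.078) or Young Sham 22 (0.0551), with log2 fold changes from -0.58 to -0.49. In Aged Sham it was at 68.5, 66.3 and 77.3 CPM, and in Aged Bleo at 50.7, 52.0, 68.1 and 67.0 CPM. The aged groups overlapped, with a log2 fold change of -0.25 ± 0.17 (adjusted p = 0.502). The end of Syvn1 overlaps Mrpl49 on the chromosome; Mrpl49 itself had a young log2 fold change of -0.05 ± 0.16.

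The other 3 degradation genes were not called. Edem1, which helps to send misfolded glycoproteins out of the ER, was at 64.4 ± 23.2 CPM in Young Bleo and 94.8 ± 14.2 CPM in Young Sham (log2 fold change -0.56 ± 0.28; adjusted p = 0.232, edgeR). Herpud1, a scaffold of the degradation complex, had a log2 fold change of -0.32 ± 0.13 (adjusted p = 0.119), and Sel1l, the partner of HRD1, of -0.24 ± 0.19. In the translocon group, through which nascent proteins enter the ER, no gene was called by edgeR, DESeq2 or limma voom, and 2 of 4 had an unadjusted p under 0.05. Sec61a1, the channel subunit, was at -0.42 ± 0.17 and was called only without Young Bleo 20 (-0.56; adjusted p = 0.035). Ssr1, a subunit of the translocon-associated complex, was at -0.33 ± 0.10 with an adjusted p of 0.0499, but under the fold threshold. Sec61b and Serp1 were at -0.20 ± 0.23 and -0.07 ± 0.11.

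The remaining genes downstream of PERK and ATF4 did not follow Trib3. Asns, asparagine synthetase, had a young log2 fold change of -0.17 ± 0.15, Chac1, a glutathione-degrading enzyme, of -0.23 ± 0.29, and Ppp1r15a, the phosphatase subunit that reverses PERK signalling, of 0.22 ± 0.24. None of these 3 was called. Of the 4 members with a C/EBP-ATF element, 3 were below 0 in Young Bleo and Trib3 alone was above. All 8 members with an ERSE were below 0, with a median of -0.30, as were 30 of all 34 members, with a median of -0.26. All but Syvn1 belong to the chaperone and isomerase groups, in which every member was below 0. Serpinh1, a collagen-specific chaperone, was at 0.05 ± 0.17.

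**Figure D3:**
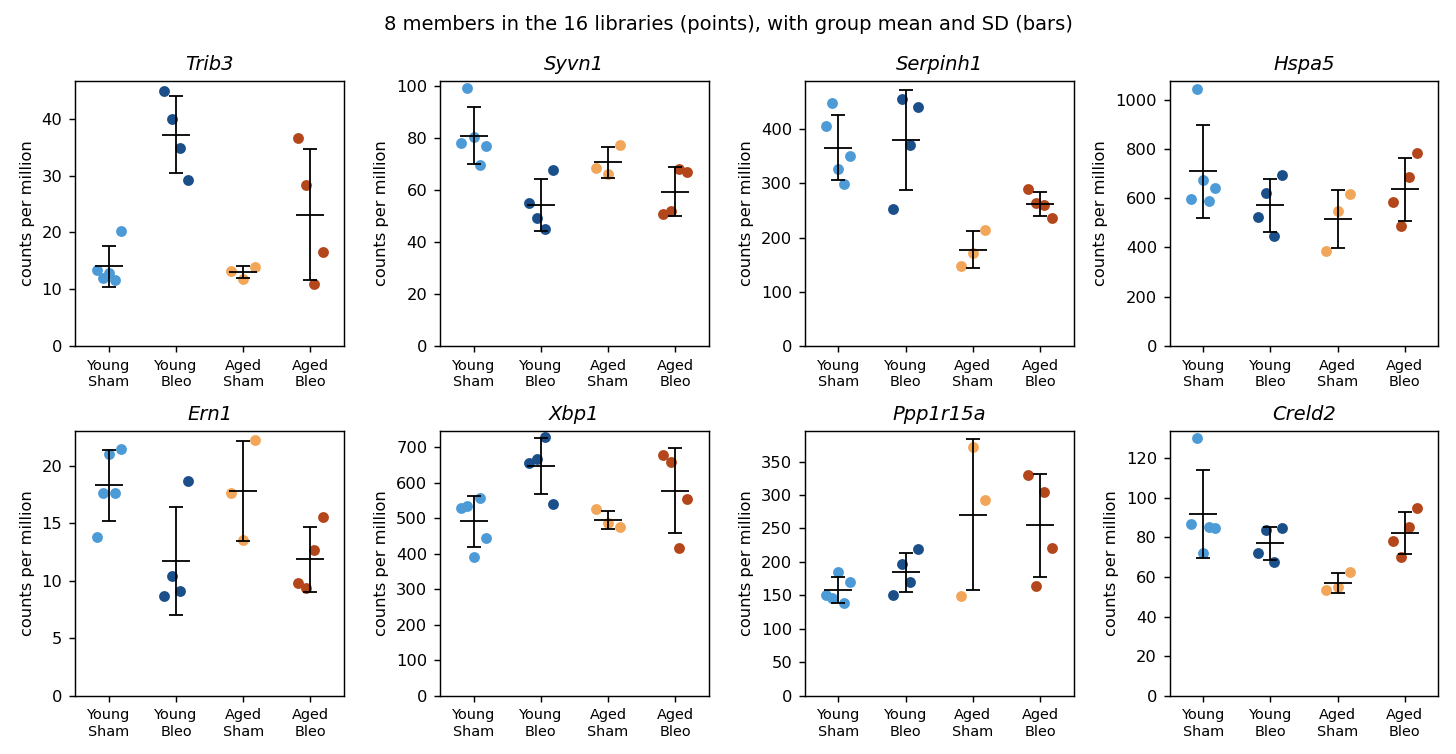
CPM of 8 members in the 16 libraries (points; axes start at 0), with horizontal bars for group means and error bars of 1 SD (n = 5, 4, 3 and 4). Trib3 lies above all sham libraries in the 4 Young Bleo libraries, Syvn1 lies lower there, and Serpinh1 is lowest in Aged Sham, at 147 to 214 CPM.

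Further ER and stress genes outside the 34 were read from lists. Of 31 other ER folding enzymes tested, 2 rose and 4 fell in Young Bleo. Qsox1, a secreted sulfhydryl oxidase, rose 2.53-fold (adjusted p = 0.0327, edgeR; called in 8 of 16 fits without 1 library), and Fkbp10, a prolyl isomerase that acts on collagen, rose 1.98-fold (adjusted p = 0.00746; called in 16 of 16). Pdia5, a disulphide isomerase, fell to 0.405 of its sham level (adjusted p = 0.0155; called in 13 of 16). Of 21 other degradation genes 2 fell, the membrane proteins Derl1 (0.673 of the sham level) and Derl2 (0.696). Of 27 other translocation and glycosylation genes 2 fell, Sec61a2 (0.563) and Rpn1 (0.583), the latter a subunit of the oligosaccharyltransferase. Of the 16 fits without 1 library, Derl1 and Sec61a2 were called in 16, and Derl2 and Rpn1 in 14. Of 18 other signalling genes of the response, none was called by edgeR or limma voom and 1 by DESeq2, with 3 at an unadjusted p under 0.05.

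Of 30 genes known as ATF4 targets that were tested outside the 34, 21 had a fold change above 0 in Young Bleo, 3 rose and none fell: Psat1, an enzyme of serine synthesis, rose 3.72-fold from 1.65 ± 0.588 to 6.15 ± 3.72 CPM (adjusted p = 0.0113, edgeR), Ddit4, an inhibitor of mTORC1, rose 3.70-fold (adjusted p = 0.0124), and Nupr1, a stress-induced chromatin protein, rose 2.33-fold (adjusted p = 0.02). The list's median log2 fold change was 0.23, against 0.01 for all genes. Of 13 enzymes of collagen biosynthesis, P4ha2, a prolyl hydroxylase subunit, rose 2.75-fold (adjusted p = 0.00164) and Colgalt2, a collagen galactosyltransferase, fell to 0.559 (adjusted p = 0.0175). Ddit4 and P4ha2 were called in 16 of the 16 fits without 1 library, Psat1 in 15, and Nupr1 and Colgalt2 in 14. The summed level of the leukocyte markers was higher in every Young Bleo library than in any Young Sham library; 6 of their 10 genes were called higher by edgeR and 2 by limma voom, while single genes such as Mrc1 and Marco overlapped. Mesothelial markers, with 4 of 4 called higher, summed to 26.1 to 78.2 CPM in Young Bleo and 0.0223 to 6.20 CPM in Young Sham. Lymphatic endothelial markers, with 2 of 4 called higher, summed to 1440 to 3253 CPM in Young Bleo and 621 to 855 CPM in Young Sham. All 6 markers of pericytes and smooth muscle had a fold change below 0 (median log2 value -1.21), and none was called by edgeR and 2 by DESeq2 and by limma voom, with 5 at an unadjusted p under 0.05. The platelet sum was 231 to 567 CPM in Young Bleo, below the 627 to 1103 CPM of Young Sham, with 4 of 4 markers below 0 (median -1.09) and none called by edgeR, DESeq2 or limma voom, 1 having an unadjusted p under 0.05. Of the 8 endothelial markers 2 were called higher and 2 lower. Of the immediate early and heat shock genes, which respond to tissue handling, 3 of 10 were called higher. The part of these markers in the fold changes of Trib3, Syvn1 and the lists was not tested.

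The second comparison asked what age alone did to the uninjured endothelium. A single member was called: Serpinh1 fell in Aged Sham relative to Young Sham. In this comparison 0.862% of all genes were called, 0.164% as lower and 0.699% as higher. Of the 34 members, 20 had a fold change below 0, against 48.7% of all genes, with a median of -0.13.

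Serpinh1 encodes HSP47, which binds procollagen in the ER. It was at 405, 448, 327, 299 and 349.6 CPM in Young Sham and at 147, 172 and 214 CPM in Aged Sham. All Aged Sham libraries lay below all Young Sham libraries, as was true for 5 of the 34 members and 3.93% of all genes. The level fell to 0.486 of the young value (95% interval 0.364 to 0.648; log2 fold change -1.04 ± 0.20; adjusted p = 0.0194, edgeR). The call was lost without Aged Sham 13 (log2 fold change -0.93, adjusted p = 0.0658), Aged Sham 14 (-1.03, 0.0927) or Young Sham 21 (-0.99, 0.0525). In Young Bleo it was at 253, 456, 370.3 and 439.9 CPM, across the Young Sham range. In Aged Bleo it was at 289, 263, 260.5 and 235 CPM, between the sham groups: above every Aged Sham library and below every Young Sham library. Neither step was called (log2 fold change 0.56 ± 0.20 from Aged Sham, adjusted p = 0.171; -0.48 ± 0.17 from Young Sham, adjusted p = 0.121).

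Fibroblasts and smooth muscle cells are known to express Serpinh1 strongly, so their markers are given beside it. Fibroblast markers (Col1a1, Col1a2, Col3a1, Pdgfra, Dcn, Lum and Postn) summed to 214 to 445 CPM in Young Sham, 211 to 348 in Young Bleo, 158 to 273 in Aged Sham and 95.2 to 167 in Aged Bleo. Of these 7 genes, 1 was called lower in Aged Sham. Markers of pericytes and smooth muscle (6 genes) summed to 197 to 440 CPM in Young Sham, 79.2 to 202 in Young Bleo, 127 to 212 in Aged Sham and 53.4 to 84.1 in Aged Bleo. In Aged Sham relative to Young Sham all 6 had a fold change below 0 (median log2 value -1.09), with none called by edgeR or limma voom, 2 by DESeq2 and 3 at an unadjusted p under 0.05. Single fibroblast markers differed in direction: Col1a1 was at 25.7 ± 10.4 CPM in Young Sham and 17.3 ± 6.62 CPM in Aged Sham, Postn at 80.6 ± 36.6 and 17.4 ± 3.76 CPM, and Pdgfra at 4.10 ± 2.37 and 21.7 ± 8.05 CPM, the last 2 without overlap. Both marker sums had their lowest group median in Aged Bleo. Their part in the fall of Serpinh1 was not tested.

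Several chaperones lay lower in Aged Sham without passing the test. Creld2, an ER-resident stress-induced protein, was at 56.9 ± 4.93 CPM in Aged Sham and 91.7 ± 22.2 CPM in Young Sham, with no overlap (log2 fold change -0.69 ± 0.17; adjusted p = 0.0808, edgeR); DESeq2 called it. Calr was at 507 ± 33.3 and 669 ± 73.6 CPM (-0.40 ± 0.12; adjusted p = 0.149). Dnajb11, a J-protein partner of BiP, was at 114 ± 22.6 and 158 ± 12.3 CPM (-0.47 ± 0.15; adjusted p = 0.163), and Pdia6 was at 274 ± 28.7 and 367 ± 52.1 CPM (-0.42 ± 0.15; adjusted p = 0.220). In the HSP70 and HSP90 group 8 of 9 fold changes were below 0 with a median of -0.34, and in the lectin and isomerase group 5 of 6 with a median of -0.32. No member of either group was called by edgeR or limma voom, 3 in each had an unadjusted p under 0.05, and DESeq2 called Creld2. Of the 8 members with an ERSE, all in these groups but Syvn1, 7 were below 0. Of the 8 endothelial markers 7 were also below 0 (median log2 value -0.24), with none called by edgeR or limma voom, 2 by DESeq2 and 4 at an unadjusted p under 0.05, and their sums did not overlap. Markers of other cell types moved with this group too. The 4 platelet markers summed to 627 to 1103 CPM in Young Sham and 1491 to 7969 CPM in Aged Sham, and all 4 had a fold change above 0 (median log2 value 1.98), with none called by edgeR or limma voom, 3 by DESeq2 and 3 at an unadjusted p under 0.05. Mesothelial markers, with 2 of 4 called higher, summed to 0.0223 to 6.20 CPM in Young Sham and 16.4 to 70.4 CPM in Aged Sham. The leukocyte sums given above did not overlap either, with 8 of 10 genes above 0 (median 1.44), and the medians were 1.95 for 4 T cell and 1.69 for 7 B and plasma cell markers. In these 3 lists none was called by edgeR or limma voom, DESeq2 called 1 leukocyte and 1 B or plasma cell gene, and 4, 1 and 2 had an unadjusted p under 0.05. The part of these markers in the values of Serpinh1 and the chaperones was not tested.

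The translocon genes were mixed, with 3 of 4 above 0 (median 0.16), none called by edgeR, DESeq2 or limma voom and 2 at an unadjusted p under 0.05. Sec61a1 was lower, at 227 ± 57.8 CPM in Aged Sham and 303 ± 32.0 CPM in Young Sham. The positive value of Sec61b rested on Aged Sham 13, at 181 CPM. Its Aged Sham median of 94.3 CPM was below the Young Sham median of 96.4 CPM. Serp1, which stabilises membrane proteins during translocation, was the 1 member above every Young Sham library in every Aged Sham library, at 155 to 165 CPM against 119 to 140.0 CPM (log2 fold change 0.28 ± 0.12; adjusted p = 0.354, edgeR), a separation shown by 4.88% of all genes. Ppp1r15a was also above its young level, at 271 ± 113 CPM in Aged Sham (148, 371 and 293) and 158 ± 19.1 CPM in Young Sham. Aged Sham 13 lay inside the Young Sham range and the other two above it. The log2 fold change of 0.78 ± 0.25 was not called (adjusted p = 0.181, edgeR), and without Aged Sham 13 it was 1.07 and was called (adjusted p = 0.035). Aged Sham 14, the highest library of its group at 371 CPM, pulled the fold change up. Edem1 was at 72.2, 229 and 107 CPM in Aged Sham, and its log2 fold change of 0.52 ± 0.30 rested on Aged Sham 14, since without it the value was -0.09. Of the 30 other ATF4 targets 2 rose with age, Cebpb, a transcription factor of acute responses, by 2.51-fold (adjusted p = 0.00998) and Jdp2, an AP-1 family repressor, by 1.90-fold (adjusted p = 0.0213). Both were called in most fits without 1 library (15 and 13 of 16). Of the 10 immediate early and heat shock genes, 3 were called higher in Aged Sham. Fos was at 50.9 to 125 CPM in Young Sham and 247 to 486 CPM in Aged Sham, Fosb at 3.67 to 6.38 and 13.1 to 24.8 CPM, and Junb at 101 to 179 and 249.8 to 355 CPM, with no overlap in any of them. The sum of all 10 overlapped (1718 to 2590 CPM and 1846 to 3167 CPM), and Jun, the largest part of it, was at means of 1284 and 1056 CPM. The part of these genes in the values of Ppp1r15a and Cebpb was not tested.

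**Figure D4:**
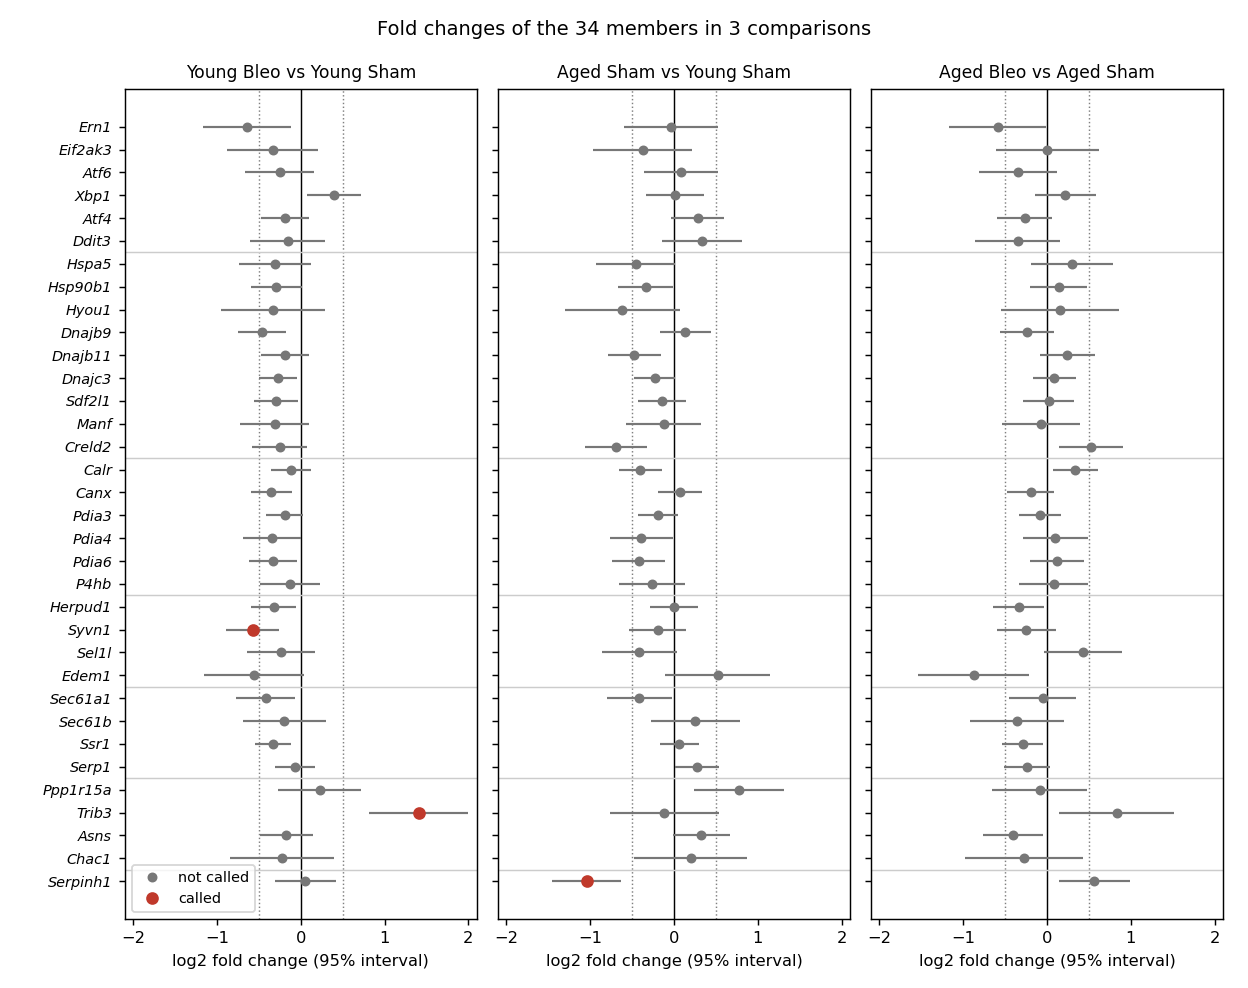
Log2 fold changes (points) with 95% intervals (lines) of the 34 members in Young Bleo vs Young Sham, Aged Sham vs Young Sham and Aged Bleo vs Aged Sham; red points were called and dotted lines mark the fold threshold of 0.5. Trib3 (1.41) and Syvn1 (-0.58) are red on the left, Serpinh1 (-1.04) in the middle, and no member on the right.

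The third comparison set aged injured cells against aged sham cells. By edgeR, DESeq2 and limma voom none of the 34 members was called, 9 had an unadjusted p under 0.05, and 0.797% of all genes were called. Without Aged Bleo 3, Trib3 was called. Of the members 18 were below 0, against 48.4% of all genes, and their median of -0.06 ran from -0.10 (without Aged Bleo 5) to 0.03 (without Aged Bleo 2) when 1 library was left out. Besides Trib3, Ern1 and Serpinh1, the largest values were those of Edem1 (-0.87 ± 0.31; adjusted p = 0.173, edgeR), which was -0.27 without Aged Sham 14, and Creld2 (0.53 ± 0.18; adjusted p = 0.150). Creld2, Calr and Serpinh1 lay higher in every Aged Bleo library than in any Aged Sham library, at 82.2 ± 10.5, 640.3 ± 54.9 and 262 ± 21.9 CPM. Such a separation was shown by 6.26% of all genes. Dnajb9, Herpud1, Ssr1 and Asns lay lower in every Aged Bleo library than in any Aged Sham library, with log2 fold changes of -0.24, -0.34, -0.29 and -0.41, as did 5.76% of all genes. None of these 7 genes was called. Between the same groups the platelet sum was 1491 to 7969 CPM in Aged Sham and 137 to 1071 CPM in Aged Bleo (4 of 4 below 0, median log2 value -2.53, 1 called), all 10 leukocyte markers were above 0 (3 called), and all 6 markers of pericytes and smooth muscle were below 0 (median -1.20; none called by edgeR or limma voom, 2 by DESeq2, 3 at an unadjusted p under 0.05). Of the fibroblast markers 5 of 7 were below 0 (median -0.69; 1 called lower), and 1 of 8 endothelial markers was called higher. Their part in the members' values was not tested. The Aged Bleo means of Creld2, Calr and Serpinh1 were below their Young Sham means of 91.7, 669 and 366 CPM. Derl1 fell to 0.595 of its sham level (adjusted p = 0.0444; called in 5 of 16 fits without 1 library), as 1 of 21 other degradation genes.

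Aged Bleo was also compared with Young Sham, which shares its control libraries with the first 2 comparisons. No member was called by edgeR or limma voom, with 10 at an unadjusted p under 0.05; DESeq2 called Ppp1r15a. Here 5.69% of all genes were called. Of the members 28 lay below 0, against 47.7% of all genes, with a median of -0.17 against 0.03. The median was -0.26 without Aged Bleo 5 and -0.13 without Young Sham 22. Syvn1 (-0.44), Sec61a1 (-0.46) and Serpinh1 (-0.48) lay below every Young Sham library in every Aged Bleo library, as did 4.81% of all genes. The 2 highest were Trib3 (0.72 ± 0.28; adjusted p = 0.144, edgeR) and Ppp1r15a (0.69 ± 0.24; adjusted p = 0.0973). Without Aged Bleo 3 Trib3 was called (0.95; adjusted p = 0.0241), and without Aged Sham 13 Ppp1r15a was called (0.70; adjusted p = 0.0371). Aged Bleo 1, the highest library of its group for Trib3, pulled the Trib3 value up. Outside the 34, Qsox1 rose 2.94-fold, P4ha2 rose 2.60-fold, Ddit4 rose 3.69-fold, Psat1 rose 3.42-fold and Phgdh, the first enzyme of serine synthesis, rose 2.81-fold. Pdia5 fell to 0.382 and Uggt2, a homologue of the glycoprotein folding sensor, to 0.384 of the Young Sham level. Of the 30 other ATF4 targets 5 rose and none fell. Rpn1 fell to 0.643 and Srprb, a subunit of the signal recognition particle receptor, to 0.705. Several of these calls depended on single libraries: of the 16 fits without 1 library, Rpn1 was called in 6, Phgdh in 8, Srprb in 10, Qsox1 in 11, Psat1 in 12, Ddit4 and Pdia5 in 14, and P4ha2 and Uggt2 in 16. In this comparison 7 of 10 leukocyte markers (median log2 value 4.26) and 2 of 4 mesothelial markers were called higher, and 6 of 6 markers of pericytes and smooth muscle (median -2.14) and 3 of 7 fibroblast markers were called lower. Of the immediate early and heat shock genes 9 of 10 were above 0 (median 0.79), with 3 called higher. Their part in these calls and in the value of Ppp1r15a was not tested.

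Age after injury gave no call either. Between Aged Bleo and Young Bleo 0.0437% of all genes were called, and none of the members was called by edgeR, DESeq2 or limma voom, with 3 at an unadjusted p under 0.05. These were Serpinh1 (-0.54 ± 0.18; adjusted p = 0.389, edgeR), Trib3 (-0.69 ± 0.29; adjusted p = 0.515) and Dnajb9 (0.36 ± 0.14; adjusted p = 0.472). The 95% intervals of 33 of the 34 members lay within 2-fold in either direction. Here all 6 markers of pericytes and smooth muscle (median log2 value -1.02) and 6 of 7 fibroblast markers (median -0.87) were below 0. All 10 immediate early and heat shock genes (median 0.45) and 9 of 10 leukocyte markers (median 1.15) were above 0. None was called by edgeR, and 3, 4, 4 and 4 had an unadjusted p under 0.05. DESeq2 called 1 pericyte or smooth muscle and 1 fibroblast marker, and limma voom 1 fibroblast marker. Their part in the values was not tested. For the difference of the aged and the young response 0.00546% of all genes were called, and again no member by any of the 3 tools. At an unadjusted p under 0.05 there were 6 members, of which Creld2 had the largest value (0.78 ± 0.24; adjusted p = 0.523). All 15 genes of the HSP70, HSP90, lectin and isomerase groups had a value above 0, with group medians of 0.43 and 0.33. The 4 PERK and ATF4 outputs were all below 0 (median -0.28), as were 4 of the 6 sensors and transcription factors. Over the 34 members 22 were above 0 and 12 below, against 49.1% of all genes below 0. The members' median of 0.22 ran from 0.15 (without Aged Bleo 5) to 0.25 (without Young Sham 21) when 1 library was left out. In the same difference all 4 mesothelial markers (median -5.28) and all 4 platelet markers (median -1.53) were below 0, and 6 of 8 endothelial markers were above 0. No gene of these lists was called by edgeR or limma voom; DESeq2 called 2 mesothelial markers and 1 fibroblast marker, and 4 mesothelial, 1 platelet, 4 endothelial and 4 of 7 fibroblast markers had an unadjusted p under 0.05. Their part in the members' values was not tested. The intervals of 25 members lay within 2-fold, so this comparison was the least precise.

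Within groups, many folding members were highest or lowest in the same library. Young Sham 22 had the highest level of its group in 12 of the 15 chaperone and isomerase genes, and Aged Bleo 5 in 13 of 15. Aged Sham 13 and Aged Bleo 2 each had the lowest level in 9 of 15. The members did not all go one way: Aged Sham 13 also had the highest level in 3 of the 15 genes, with Manf at 0.48 and P4hb at -0.53 from their group means, and Young Bleo 20 had the highest level in 7 and the lowest in 3. These counts were not set against all genes. Short genes were most raised in Aged Sham 13, Young Bleo 19 and Aged Bleo 2, the 3 libraries with the lowest mean deviation of the folding members (-0.11, -0.15 and -0.12). They were most reduced in Young Sham 22 and Young Bleo 20, where the folding members deviated by 0.24 and 0.10. Aged Bleo 5 was raised in the folding members (0.20) with a short-gene value of -0.08, and Young Bleo 18 was raised in both (0.09 and 0.17). Young Sham 21 had a folding value of -0.11, close to that of Aged Sham 13, with a short-gene value of -0.11. The link between short genes and folding members was not tested. With a gene-length trend per library taken out, Trib3, Syvn1 and Serpinh1 kept their calls (log2 fold changes 1.38, -0.54 and -1.05), Dnajb9 was also called (-0.51; adjusted p = 0.0201, edgeR), and 30 of 34 young fold changes were still below 0.

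**Figure D5:**
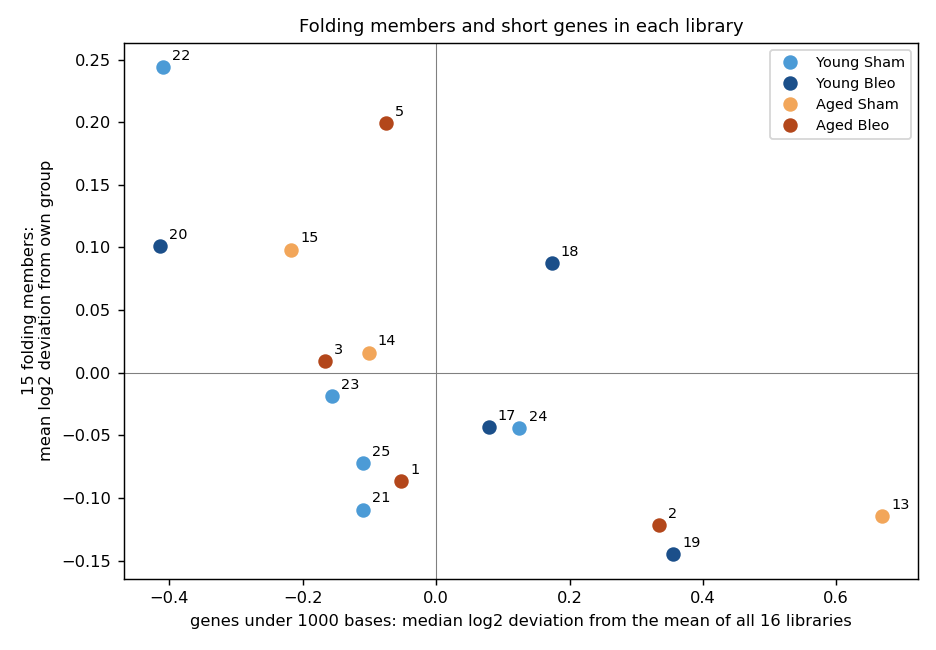
Mean log2 deviation of the 15 chaperone and isomerase members from their own group (vertical axis) against the median log2 deviation of genes under 1000 bases from the mean of all 16 libraries (horizontal axis); each point is 1 library with its replicate number. Young Sham 22 lies at the upper left (-0.41, 0.24) and Aged Sham 13 at the lower right (0.67, -0.11).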

How the data were processed

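RNA-seq of sorted lung endothelial cells gave 1 library per labelled sample, and the labels do not name the animal behind each. Per the submitters' processing notes, the authors aligned reads with STAR 2.5.2b to mm10 and counted them per gene with featureCounts (Subread). The deposited table holds whole-number counts, which were the base of all tests, and FPKM, which the authors computed per gene length and which was used only for levels between genes. Strand use in counting is not given in the sources used here. Of the 34 members, 7 overlap another coding gene on the chromosome (Ddit3, Manf, Pdia3, Pdia6, Syvn1, Serp1 and Ppp1r15a), and reads of such a pair cannot be told apart without strand. The labels name the SMART-Seq and Nextera kits, and the study's methods a poly(A) kit.

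Counts of all 16 libraries were fitted in 1 model with edgeR 4.0.16 (R 4.3.3; TMM scaling, filterByExpr, glmQLFit and glmQLFTest), with Benjamini-Hochberg adjustment over 18324 genes. Calls needed an adjusted p up to 0.05 with a log2 fold change of 0.5 or more in either direction. The standard error is the absolute log2 fold change divided by the square root of the F statistic. Alternatives were DESeq2 1.42.0 (the tool of the study), limma 3.58.1 voom, RLE scaling, no filter, only the groups compared, and leaving out each library. A gene-length offset was added after seeing the data. The scripts were tested on simulated data; for Young Bleo vs Young Sham, DESeq2 made more false calls there than edgeR or limma voom.

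Members, lists and tests were chosen with earlier results of these data known. Members called in any comparison, the 3 sensors and Hspa5 are given in every library; of other lists, up to 3 called genes per comparison are named, by size of change. Other genes named were chosen after their values were seen. Columns used were all mapped to samples by name.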

Additional observations from a re-analysis of the deposited data

Results flagged for a closer look

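In a check for single libraries far from the rest of their group (Dixon's ratio, groups of 4 or 5 libraries), 7 of 102 member and group pairs stood out; chance flags about 1 in 20. Young Sham 22 gave 5 of them, each as the highest of its group: Hspa5 at 1043 CPM (next library 672), Creld2 at 130 CPM (next 86.6), Pdia4 at 295 CPM (next 226), Pdia6 at 459 CPM (next 355) and Edem1 at 120 CPM (next 90.9). The same library had a low short-gene value of -0.41. Young Sham 25 was the highest of its group for Trib3 at 20.3 CPM (next 13.4), still below every Young Bleo library. Aged Bleo 2 was the lowest of its group for P4hb at 482 CPM (next 580).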

How the results depend on the processing

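No paired analysis was possible because the replicate numbers do not repeat between groups. Of the 34 members, none reversed a called direction in any setting run. Trib3 in Young Bleo was called in every setting run. Members called were 2 in Young Bleo vs Young Sham, 1 in Aged Sham vs Young Sham and 0 elsewhere; DESeq2 gave 2 in Aged Sham vs Young Sham (Creld2 added) and 1 in Aged Bleo vs Young Sham (Ppp1r15a), and leaving out 1 library gave 1 to 4, 0 to 1, 0 to 1 (Aged Bleo vs Young Sham), 0 to 1 (Aged Bleo vs Aged Sham), 0 to 0 (Aged Bleo vs Young Bleo) and 0 to 0 (difference of responses). Without Young Bleo 20, the 4 calls in Young Bleo were Trib3, Syvn1, Ern1 and Sec61a1.

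Counts over all genes moved more. In Young Bleo vs Young Sham 1793 genes were called, and 779 to 2533 with 1 library left out (lowest without Young Bleo 17). In Aged Sham vs Young Sham the count was 158, with 622 by DESeq2, 104 by limma voom, and 60 to 186 with 1 library left out (lowest without Aged Sham 14). In Aged Bleo vs Young Sham it was 1043, with 1801 by DESeq2 and 368 to 1417 with 1 library left out (lowest without Aged Bleo 1). In Aged Bleo vs Aged Sham it was 146, with 1083 by DESeq2, 53 by limma voom, 292 with the gene-length offset, 0 in a fit on the groups compared only, and 0 to 560 with 1 library left out (highest without Aged Bleo 3). In Aged Bleo vs Young Bleo it was 8, with 188 by DESeq2, 29 by limma voom, 19 with the offset, 13 without the filter, 2 on the groups compared only, and 0 to 15 with 1 library left out. For the difference of responses it was 1, with 77 by DESeq2, 3 without the filter, and 0 to 4 with 1 library left out. The cause was not tested.

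With 3 to 5 libraries per group, intervals of the members in the difference of responses lay within 2-fold for 25 of 34. The lowest counts in a single library were those of Chac1 (84 reads), Hyou1 (209) and Trib3 (275). The p-values measure the spread between libraries.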
